A study of Mus musculus with 4 samples.

Results

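The comparison described here sets 2 of the 4 small RNA libraries of a study on conditional RNA interference in mice against each other. Both come from embryonic fibroblasts of mice (MEFs, a primary culture from embryos) that were given doxycycline (dox). Both carry shLuc.1309, a short hairpin RNA (shRNA) directed at luciferase, which mice do not have. The cells of the first library (shLuc.1309;ROSA-rtTA) also carry rtTA, the reverse tetracycline transactivator, named with Rosa26, a locus expressed in nearly every tissue of the mouse. The cells of the other library (shLuc.1309) have no transactivator. rtTA turns a tetracycline-responsive promoter on only with dox, so the shRNA is induced in the first library and not in the other, while the drug is the same in both. They are called the induced library and the dox control here. The other 2 libraries are the same genotypes without dox, in which the shRNA is also not induced, and they show where each dox-treated library lies. Each group is 1 library; the sources used here do not give the dose and duration of dox or how many embryos or cultures are behind a library. No difference below therefore has a replicate check, no p-value was computed, and the values compare libraries, not conditions.

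All microRNAs listed in the files were members, 508 in any of the 4 libraries, with an unlisted microRNA taken as 0. Levels are CPM, counts per 1000000 endogenous microRNA counts, so the shRNA is outside the total. Of the 508, 372 passed an abundance floor (a mean CPM over the 4 libraries worth 20 counts in the shallowest, 3.14 CPM) and hold 99.99% of the endogenous counts. Of the 136 under it, 31 were at 0 in the induced library, 45 in the dox control and 14 in both, and the largest count among them in either was 30. A count of 0 allows up to 0.400 CPM in the induced library and 0.459 in the dox control (3 counts). Names are given without the prefix mmu-, and a star marks the arm of a hairpin listed as its passenger strand.

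MicroRNAs are cut from hairpins in the nucleus by Drosha, exported by Exportin-5, trimmed by Dicer and loaded into Argonaute proteins, where bases 2 to 8, the seed, guide them to their targets. An shRNA built into a microRNA hairpin passes through the same enzymes, so its expression is a load on a shared pathway. A luciferase shRNA is used as a control in such work because its target is missing from mouse cells. A library with the shRNA induced beside one without, under the same drug, addresses whether the endogenous microRNAs hold the same shares of their pool when the hairpin is expressed. Since CPM set each library to the same endogenous total, a change of all microRNAs together would not be seen. In this pair rtTA and the induced shRNA come together, so they cannot be told apart.

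The shRNA sequence is shown because its level checks the labels. The row that names it spans 324 bases with a perfect stem, 23 base pairs long, whose arms (bases 130 to 152 and 168 to 190) read, 5′ to 3′:
5′ stem arm: ccgcctgaagtctctgattaata
3′ stem arm: tattaatcagagacttcaggcgg
The shRNA stood at 24386 CPM in the induced library and 774 CPM in the dox control. Without dox it stood at 726 CPM (no rtTA) and 786 CPM (rtTA). Only the library with both rtTA and dox was high, 31.5-fold above the dox control (95% interval 30.6 to 32.4). The shRNA was counted in every library, and in the dox control it ranked 102 among the listed small RNAs by level, so it was lower there but not absent. Intervals of ratios are exact conditional binomial intervals and those of shares Clopper-Pearson intervals; both cover counting error only, since PCR reads that lack molecular identifiers do not each stand for a molecule.

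The induced library held 7690978 counts and the dox control 6545093, and the libraries without dox 6383594 and 8780954. The fibroblast label was checked against microRNA lists of cell types. All 19 arms of the mesenchymal list were past the floor, with a summed level of 461293 CPM in the induced library and 451998 CPM in the dox control. Most of this sum was miR-21, miR-22 and miR-143. None of the 11 epithelial or 9 pluripotent entries was past the floor, with summed levels of 11.9 and 8.41 CPM (epithelial) and 1.47 and 0.917 CPM (pluripotent) in the same order. Entries of other lists also passed it, among them 11 of 14 neural (1005 and 903 CPM) and 5 of 8 blood entries (83.0 and 85.5 CPM). So did 3 of 7 muscle (593 and 248 CPM) and 2 of 2 endothelial entries (126 and 175 CPM), whose sums were further apart. In bulk RNA, fewer cells of a type and less RNA per cell cannot be told apart.

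Those at least 2-fold apart between the dox-treated libraries, with equality outside the interval, were counted as higher or lower in the induced one. By this rule 9 of 372 were higher in the induced library (2.42%) and 53 were lower (14.2%), 62 in all (16.7%). The same genotypes without dox gave 2 higher (0.538%) and 5 lower (1.34%). The log2 ratios with dox ran from -3.35 to 1.41 with a median of -0.07 and an SD across microRNAs of 0.74, against an SD of 0.36 without dox. Scaling by TMM raised the median of all by 0.101 and gave 13 higher and 42 lower. The counted microRNAs were a small part of the pool. Those counted as lower took 2.23% of the endogenous counts in the dox control and 0.971% in the induced library, and those counted as higher took 0.315% and 0.681%. Of the 205 microRNAs over 100 CPM in the mean of both libraries, 16 were lower and 5 higher.

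**Figure D1:**
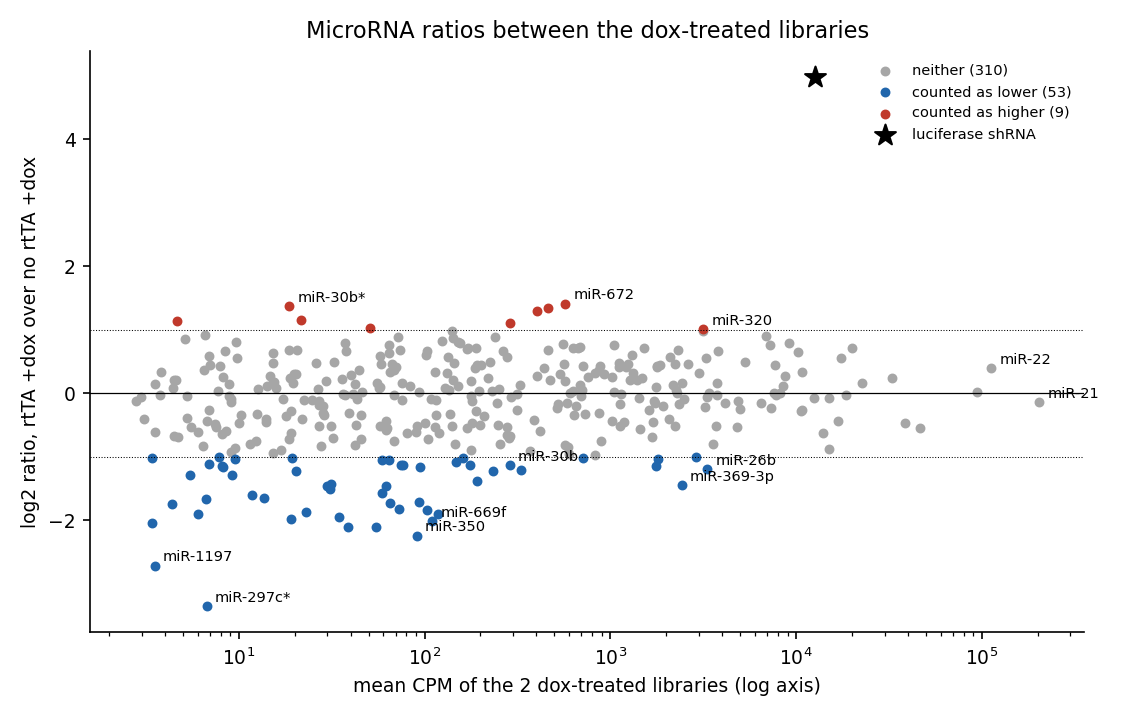
Log2 ratio of CPM (induced library over dox control, vertical axis) against the mean CPM of both libraries (horizontal log axis) for 372 microRNAs, 1 point each; dotted lines mark 2-fold, the star is the shRNA. The 53 lower microRNAs reach -3.35 and lie mostly at low to middle levels, the 9 higher ones end at 1.41, and the shRNA lies above all of them.

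The most abundant microRNAs were close between the libraries. miR-21, a microRNA abundant in fibroblasts, was at 193838 CPM in the induced library and 213211 CPM in the dox control, and at 230257 (no rtTA) and 207301 CPM (rtTA) without dox. The induced library was the lowest of the 4 but within 1.10-fold of the dox control. miR-22 was at 128127 and 97446 CPM (log2 ratio 0.39) and miR-143 at 94902 and 93570 CPM (0.02). miR-29b (-0.55) and miR-29a (-0.46) were the furthest below 0 of the 10 most abundant, and let-7c (0.71) and miR-31 (0.55) the furthest above. miR-24 was at 0.25, let-7i at 0.16 and miR-130a at -0.03. None of these 10 was counted as higher or lower.

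The microRNAs counted as higher and matched to RefSeq are shown first, from the largest ratio, since they share a composition that the comparison did not use. Sequences are as deposited, 5′ to 3′ in DNA letters, with the seed (bases 2 to 8) in capitals:
miR-672: tGAGGTTGgtgtactgtgtgtga
miR-483: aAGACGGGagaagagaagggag
miR-206: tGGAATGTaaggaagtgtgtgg
miR-323-5p: aGGTGGTCcgtggcgcgttcgc
let-7b*: cTATACAAcctactgccttccc
miR-370: gCCTGCTGgggtggaacctggt
miR-675-5p: tGGTGCGGaaagggcccacagt
All except let-7b* are rich in G: let-7b* has 4.55% G and the other 6 have 40.9% to 50.0%, against a median of 23.8% over the 372.

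miR-672 had the largest ratio. It was at 834 CPM in the induced library, 313 in the dox control, 381 in rtTA cells without dox and 418 in cells with neither, so the induced library was high and the others lay together. The log2 ratio was 1.41 (1.34 to 1.49, on 6258 and 2048 counts). It lies in an intron of Nexmif on chromosome X (104116228 to 104116250, minus strand; RefSeq positions, GRCm38).

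miR-30b*, the passenger arm of miR-30b, was at 26.9 CPM in the induced library and at 10.4 in the dox control, 12.2 (rtTA) and 7.21 (no rtTA) without dox. It was the only microRNA at least 2-fold above each of the 3 others (0.269% of the 372), with a log2 ratio of 1.37 (0.97 to 1.79) on 202 and 68 counts.

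Of the imprinted host genes Igf2, H19 and Mest, 2 of 6 arms were counted as higher and 0 as lower (over all 372, 2.42% and 14.2%), with a median of 0.18. miR-483, from an intron of the growth factor gene Igf2, was at 661 CPM in the induced library against 262 in the dox control, 361 (rtTA, no dox) and 289 (neither). Its ratio of 1.34 (1.26 to 1.42) stood beside 0.40 for its other arm, miR-483*. miR-675-5p, from an exon of the growth-restraining RNA H19, was at 68.6 CPM against 33.8, 38.3 and 44.2 CPM in the same order (1.02, 0.79 to 1.26). Its other arm, miR-675-3p, was at -0.36. The Mest arms miR-335-5p and miR-335-3p were at -0.05 and -0.93. Both called members were highest in the induced library, and their partners from the same hairpins were not counted.

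miR-206, a microRNA of skeletal muscle, was at 575 CPM in the induced library, 234 in the dox control, 352 in rtTA cells without dox and 246 in cells with neither. It was above its genotype control both with dox (1.30) and without (0.52). Of the 7 muscle entries, 3 were past the floor. Each of these 3 was above 0 with dox and without. Without dox 1 of them, other than miR-206, was counted as higher (0.538% over all 372). miR-1 was at 7.86 and 7.65 CPM in the induced library and the dox control, and miR-133a at 6.66 and 3.67 CPM (0.86, 0.13 to 1.63). The summed muscle level was 593 CPM in the induced library, 248 in the dox control, 383 and 262, nearly all of it miR-206, and its part in the result was not tested.

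miR-320 was the most abundant of those counted as higher. It was at 4212 CPM in the induced library, against 2097 in the dox control, 2226 and 2552 without dox. It lay just past the threshold (1.01, 0.98 to 1.04) and fell short of it when the shRNA was included in the total. Its hairpin is transcribed as such and bypasses the Drosha cut. Of the 5 arms with a Drosha-independent origin it was the only one counted. miR-877 and miR-877*, from a mirtron (a hairpin spliced out as an intron), were at 0.42 and 0.20, the mirtron arm miR-702 at -0.06 and miR-484 at -0.50. The median of the list was 0.20, against -0.07 over all. miR-451, which is cut by Ago2 in place of Dicer, was at -0.61 on 21 and 28 counts, with an interval from -1.50 to 0.25.

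miR-370 (1.10) and miR-323-5p (1.16, on 225 and 88 counts) belong to the imprinted Dlk1-Dio3 region described further on. let-7b* was counted as higher on 48 and 19 counts (1.14, 0.34 to 1.99). It was at 6.39 CPM in the induced library, within the 5.81 and 8.31 CPM of the libraries without dox, while the dox control was low at 2.91 CPM. It is near-identical (at most 2 mismatches) to let-7f*, which was counted as lower on 38 and 73 counts (-1.14). The counts of let-7b* and let-7f* are therefore uncertain between these names.

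The microRNAs counted as lower are shown by those beyond all 3 other libraries and matched to a single RefSeq position, since here the induced library itself is the low one:
miR-350: tTCACAAAgcccatacactttc
miR-337-3p: tTCAGCTCctatatgatgcct
miR-1193: tAGGTCACccgttttactatc
miR-1191: cAGTCTTActatgtagcccta
miR-32: tATTGCACattactaagttgca
miR-495: aAACAAACatggtgcacttctt
miR-674*: cACAGCTCccatctcagaacaa
miR-34b-3p: aATCACTAactccactgccatc
let-7f*: cTATACAAtctattgccttccc
miR-382*: tCATTCACggacaacacttttt
These 10 hold 4.55% to 14.3% G. Among them let-7f* is near-identical to let-7b*, which was counted as higher. In all, 16 microRNAs were at least 2-fold below each of the 3 others (4.3% of the 372). The other 6 were miR-297c*, miR-466e-3p, miR-669f, miR-466d-3p, miR-466i and miR-365.

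miR-350 was at 31.7 CPM in the induced library and at 150 in the dox control, 75.6 (rtTA) and 81.7 (no rtTA) without dox. The induced library was the lowest and the dox control the highest, with the 2 others together between them. The log2 ratio was -2.24 (-2.45 to -2.04) on 238 and 980 counts. It lies in an intron of Cep170 on chromosome 1 (176772342 to 176772363, minus strand).

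miR-365 had the same order, at 20.6 CPM in the induced library, 88.7 in the dox control, 55.0 and 45.5 without dox (-2.10). miR-32, from an intron of Tmem245 on chromosome 4 (56895272 to 56895293, minus strand), was at 43.8, 144, 96.9 and 88.9 CPM (-1.71). In these 3 microRNAs the ratio between the dox-treated libraries includes both a low induced library and a high dox control.

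For miR-669f the 3 other libraries lay together. It was at 43.8 CPM in the induced library against 177 in the dox control, 184 and 190, a ratio of -2.01. miR-466e-3p (14.7 against 62.8, 65.8 and 73.4 CPM) and miR-674* (15.8 against 43.6, 45.2 and 50.8 CPM) had the same shape. In these 3 microRNAs only the induced library stood apart. The smallest counts were those of miR-297c*, 9 in the induced library and 80 in the dox control (-3.35, -4.53 to -2.35), and miR-1197, 7 and 40 (-2.71, -4.12 to -1.54).

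**Figure D2:**
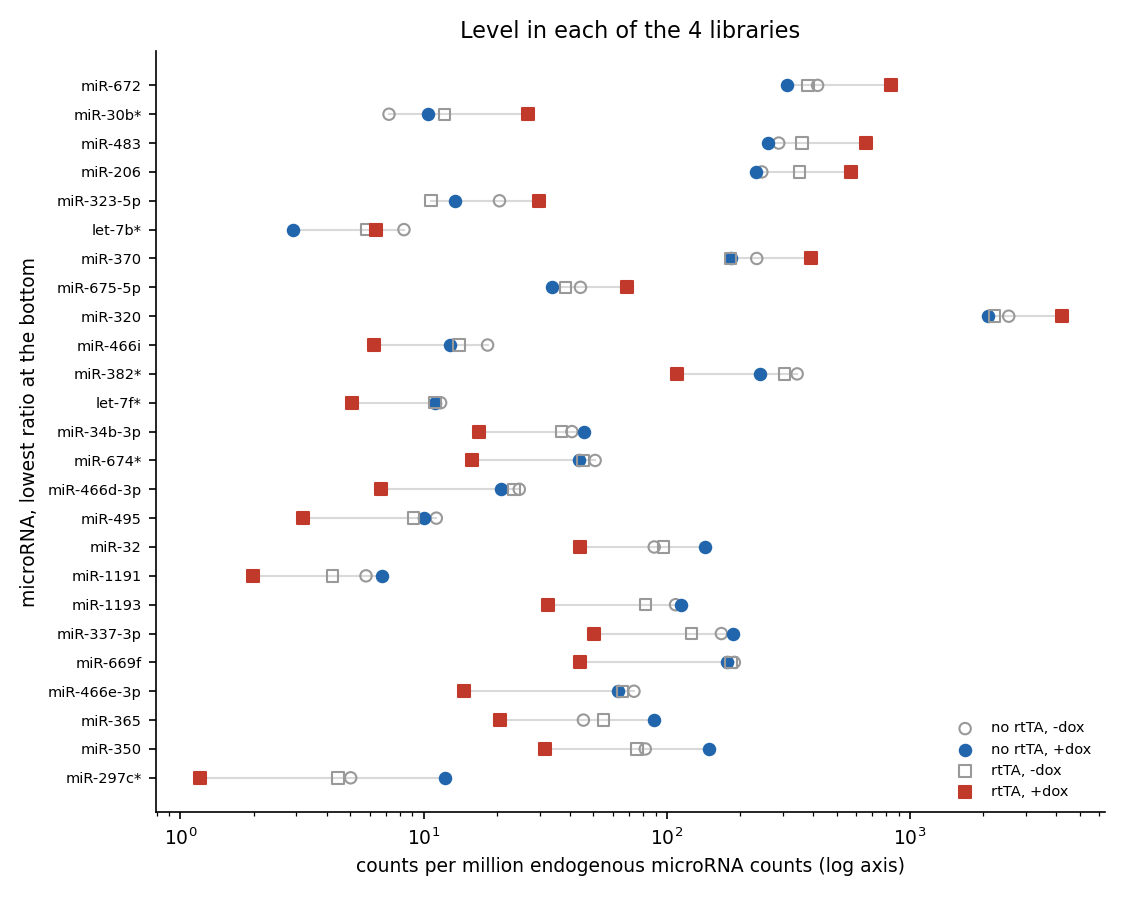
CPM (log axis) in each library for the 9 microRNAs counted as higher and the 16 at least 2-fold below each other library, ordered by log2 ratio; open symbols are libraries without dox, filled circles the dox control and filled squares the induced library. The induced library is at the right end for all higher ones but let-7b* and at the left end for all lower ones, and the dox control is at the opposite end for miR-350, miR-365 and miR-32 among others.

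Over all those counted, the place of the 2 libraries among the 4 was as follows, and the selection fixes it in part. Of the 53 counted as lower, the induced library was the lowest of the 4 for 52, and the dox control was the highest for 40. The exception was miR-29a*, at 199 CPM in the induced library, 461 in the dox control, 215 and 186 without dox (-1.21), where the dox control stood apart from the 3 others. The median ratio of the 53 between the genotypes without dox, which shares no library with the selection, was -0.07, equal to that over all 372 to 2 decimals. Only miR-574-3p (-1.52 with dox, -1.27 without) and miR-139-5p (-1.02 and -1.12) were counted as lower in both. Of the 9 counted as higher, the induced library was the highest for 8 and the dox control the lowest for 6; without dox 3 of them lay above 0 and none was counted.

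The ratio went with the share of G in the mature sequence. Of 28 microRNAs with up to 10% G, 19 were lower and 1 higher (median -1.14). Of 91 with 10% to 20% G, 28 were lower and 0 higher (-0.54), and of 128 with 20% to 30% G, 6 and 0 (-0.13). Above 30% G none was lower, while 1 of 94 with 30% to 40% G was higher (median 0.29) and 7 of 31 with over 40% (0.68). Between the same genotypes without dox the medians of these classes were -0.13, -0.06, -0.07, -0.04 and -0.21. Each further 10 percentage points of G went with 0.51 on the log2 scale, and the least-squares line met 0 at 28.9% G. The share of G among all sequenced endogenous microRNA bases was 27.6% in the induced library and 26.3% in the dox control, 26.7% (rtTA) and 26.5% (no rtTA) without dox. Against the dox control the Pearson correlation of ratio and G was 0.69. With the induced library set against those without dox it was 0.72 (rtTA) and 0.67 (no rtTA). It was -0.20 for the dox control over the same genotype without dox, and -0.0038 between the genotypes without dox. The trend thus lay with 1 library, and what is particular to that library cannot be told apart from shRNA induction.

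**Figure D3:**
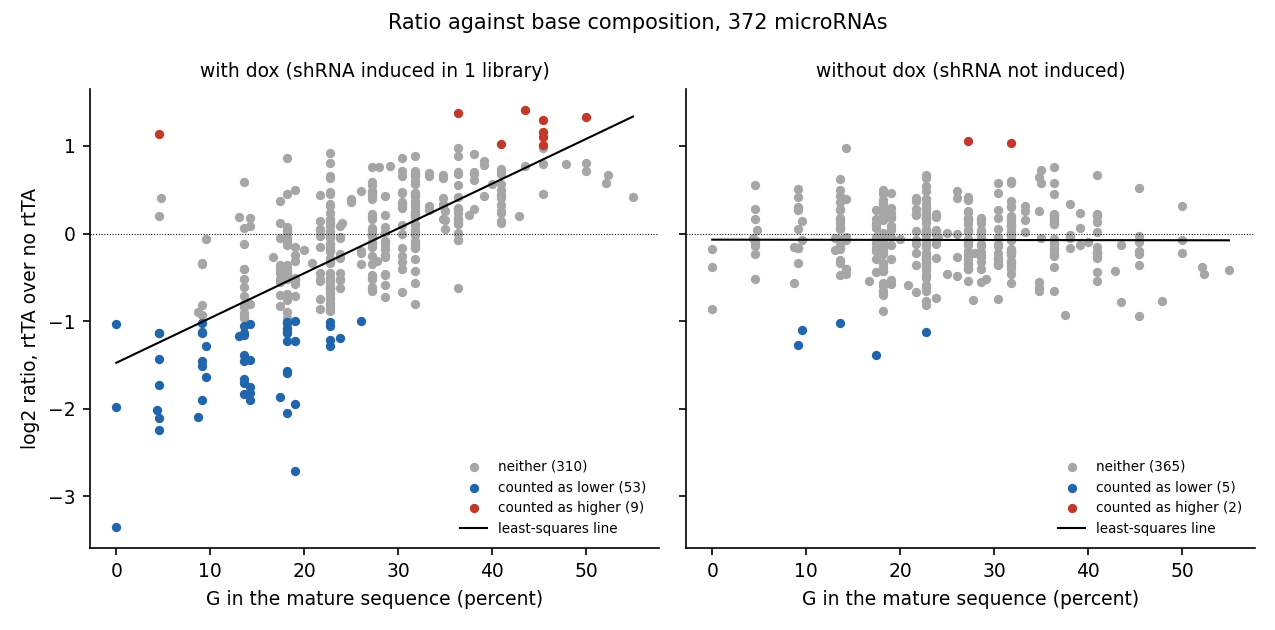
Log2 ratio of rtTA over no rtTA (vertical axis) against the percentage of G in the mature sequence for 372 microRNAs, with dox on the left and without dox on the right; the panels share no library. With dox the points climb along the line and the 53 lower and 9 higher microRNAs sit at its ends, with let-7b* apart at the upper left; without dox the line is flat.

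With the linear trend on G subtracted, 8 microRNAs were higher and 13 lower, against 9 and 53 before. Of the 62 counted before, 13 were counted again. These were miR-297c*, miR-1197, miR-466e-3p, miR-19a*, miR-126-5p, miR-337-3p, miR-135a, miR-411*, miR-1193, miR-1191, miR-543, miR-496 and, as higher, let-7b*. Newly counted were miR-133a, miR-196a*, miR-342-3p, miR-483*, miR-532-3p, miR-708* and miR-877* as higher and miR-666-3p as lower. miR-672, miR-483, miR-206, miR-30b*, miR-350, miR-365 and miR-669f were no longer counted. The part of base composition in each single ratio was not tested.

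MicroRNAs that differ at a single base show the same on nearly equal sequences. Among the 372 there were 22 pairs of equal length that differ at 1 base, and 9 of them differ in their number of G. The member with more G had the higher ratio in 9 of these 9 pairs, by 0.09 to 0.85 on the log2 scale (median 0.36); without dox it did in 3 of 9. In the 13 pairs of equal G the members were also apart, by 0.01 to 1.06 (median 0.39). The sources used here do not say how reads that fit several microRNAs were treated, so counts may be shared within these pairs, and several pairs share a member. Positions below count from 1 at the 5′ end, with the base of the member with less G first.

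The abundant let-7 family, which restrains proliferation, has 9 guide strands that share the seed GAGGTAG. They are printed in the order of their ratio:
miR-98: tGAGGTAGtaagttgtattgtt
let-7f: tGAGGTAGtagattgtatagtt
let-7g: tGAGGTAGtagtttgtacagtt
let-7a: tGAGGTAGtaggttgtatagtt
let-7d: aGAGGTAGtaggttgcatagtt
let-7e: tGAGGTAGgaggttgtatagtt
let-7i: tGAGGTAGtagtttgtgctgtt
let-7c: tGAGGTAGtaggttgtatggtt
let-7b: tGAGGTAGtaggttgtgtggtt
The ratios ran from -0.57 (miR-98, 31.8% G) to 0.80 (let-7b, 45.5% G), and none was counted as higher or lower. Across these 9 sequences, which share a seed and some reads, the Pearson correlation of ratio and G was 0.91. In other groups of guides with 1 seed it was 0.98 (5 with GTAAACA), 0.91 (5 with AAAGTGC) and 0.58 (6 with AGCAGCA). Over all 16 arms of the let-7 family it was 0.54 with dox and 0.24 without. let-7f and let-7a differ by A12G and were at -0.43 and -0.07. let-7a and let-7c differ by A19G and were at -0.07 and 0.71. let-7c and let-7b differ by A17G and were at 0.71 and 0.80.

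In levels, let-7f was at 14398 CPM in the induced library, below 19394 in the dox control, 20169 and 15542 without dox. let-7c was at 24693 CPM, above 15129, 18976 and 17375 CPM. let-7c was thus above let-7f in the induced library and in the library with neither rtTA nor dox, and below it in the other two. Over all 16 let-7 arms past the floor, 1 was higher and 3 lower (median -0.18; over all 372, 2.42% and 14.2%), and all 4 were passenger strands (let-7b*, let-7f* and the star arms of let-7c-1 and let-7c-2).

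Outside let-7, miR-107 and miR-103, hosted in pantothenate kinase genes, differ by C22G and were at -0.20 and 0.66. miR-101a and miR-101b differ by A16G and were at -0.72 and -0.06. miR-103 was at 12585 CPM in the induced library and 7989 in the dox control, with 10053 and 10956 without dox.

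The arms of one hairpin come from the same transcript and are cut by the same enzymes. Of 108 hairpins with both arms past the floor, 31 had an arm counted as higher or lower. Of all single microRNAs past the floor, 16.7% were counted. A hairpin can enter through either arm, so a larger share of hairpins than of single microRNAs is no excess by itself. In 30 of the 31 hairpins only 1 arm was counted, and in 14 of these 30 the arms lay on opposite sides of 0. Over all 108 the arms lay on the same side of 0 in 57, so opposite sides were about as common there. Where the counted arm was lower it had less G than its partner, and where it was higher it had more G, in 26 of the 30; the exceptions were let-7b*, miR-19a*, miR-26b and miR-29a*. Across the 108 hairpins the Pearson correlation of the ratios of the arms was -0.0048, and that of the difference between arms in ratio and in G was 0.72. Arms were paired by name, and a name shared by several precursors mixes their counts.

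**Figure D4:**
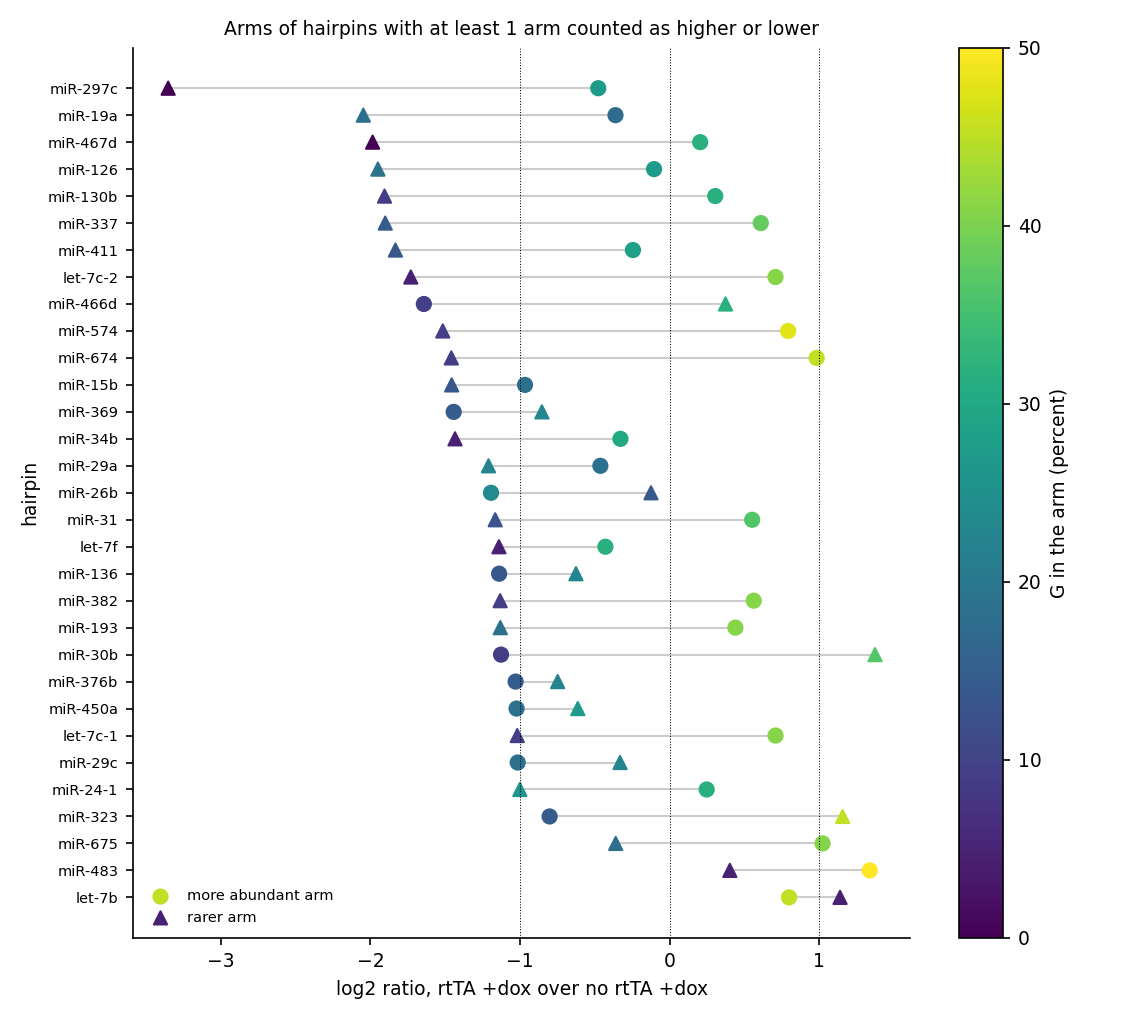
Log2 ratio (induced library over dox control) of the more abundant arm (circle) and the rarer arm (triangle) of 31 hairpins with at least 1 arm counted as higher or lower, coloured by the percentage of G in that arm; dotted lines mark 0 and 2-fold. In most rows the darker, G-poor arm lies left of its partner, and miR-30b has its arms past 2-fold on opposite sides.

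miR-30b was the only hairpin with both arms counted, in opposite directions. Its guide, from the family that lends its hairpin to many shRNA vectors, was at 180 CPM in the induced library and 394 in the dox control, 247 and 311 without dox (-1.13, -1.22 to -1.03). With miR-30b* at 1.37, the passenger arm held 13.0% of the hairpin's counts in the induced library (11.4% to 14.8%) and 2.57% in the dox control (2.0% to 3.25%). The other guides of the family were at 0.13 (miR-30d), 0.01 (miR-30e), -0.12 (miR-30a) and -0.89 (miR-30c). The last, like miR-30b, is poor in G (8.70% and 9.09%, against 22.7% in the 3 others). Over the 10 arms of the family the correlation of ratio and G was 0.93 with dox and 0.88 between the libraries without dox, so in this family the ratio went with G in both comparisons. The median of the 10 was -0.05. It was 0.05 under TMM scaling, 0.25 with the trend on G subtracted and 0.46 with near-identical microRNAs left out.

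Among hairpins with arms on opposite sides of 0, miR-337 had them furthest apart in ratio:
miR-337-5p: gAACGGCGtcatgcaggagtt
miR-337-3p: tTCAGCTCctatatgatgcct
The 5p arm was at 1577 CPM in the induced library against 1034, 1054 and 1083 CPM (0.61), and the 3p arm at 50.1 CPM against 187, 127 and 168 CPM (-1.90). The share of the 3p arm was 3.08% (2.78% to 3.40%) in the induced library and 15.3% (14.5% to 16.1%) in the dox control. miR-674 and miR-674* were at 0.98 and -1.46, with the star arm at 0.379% and 2.02% of the hairpin. miR-574-5p and miR-574-3p were at 0.79 and -1.52. miR-323-5p and miR-323-3p were at 1.16 and -0.80, with the 5p arm at 21.9% in the induced library and 6.73% in the dox control. miR-126-5p, an arm of the endothelial microRNA from Egfl7, was at -1.95 while miR-126-3p was at -0.10 (111 and 120 CPM).

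The Dlk1-Dio3 region on chromosome 12, a large cluster transcribed from the maternal chromosome, is the largest of the lists: 2 of 69 arms were higher and 15 lower, with a median of -0.34, against 2.42% and 14.2% over all 372. The members spread from -2.71 (miR-1197) to 1.16 (miR-323-5p), though they are thought to come from few long transcripts. Across the 69 the correlation of ratio and G was 0.81 with dox and -0.22 without. Within the stretch from 109709065 to 109743784 (plus strand), 44 arms had 12 counted as lower and 1 as higher, at a median of 20.4% G and a ratio of -0.62. Within the stretch from 109585815 to 109595387, 15 arms had 2 lower and 0 higher, at 28.6% G and -0.04.

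Among the abundant members, miR-369-3p was at 1300 CPM in the induced library, 3537 in the dox control, 2468 and 1883 without dox (-1.44). miR-376c was at 1919, 3848, 2853 and 2521 CPM (-1.0), miR-376b at 1185 and 2419 CPM (-1.03), and miR-136* at 1098 and 2418 CPM (-1.14). The induced library was the lowest and the dox control the highest of the 4 in each. miR-541 (0.76), miR-379 (0.28) and miR-411 (-0.25) from the same region were not counted. miR-382* was at 110 CPM against 241, 306 and 344 CPM (-1.13), while miR-382 was at 0.56.

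The rodent cluster in Sfmbt2, of related hairpins with long runs of alternating bases, had 7 of 26 arms lower and 0 higher (median -0.26), against 14.2% and 2.42% over all 372. The 7 were miR-297c*, miR-466e-3p, miR-669f, miR-467d*, miR-466d-3p, miR-466g and miR-466a-5p. Their ratios lay between -3.35 and -1.29, and all but miR-466a-5p have less than 10% G. miR-297c*, miR-466e-3p and miR-466d-3p share the seed ATACATA. miR-466e-3p, miR-466d-3p, miR-669f, miR-467d* and miR-466a-5p have a near-identical listed microRNA (at most 2 mismatches), so their counts are uncertain between copies. Across the 26 arms the correlation of ratio and G was 0.92 with dox and -0.15 without. In other sets it was also lower without dox but not always near 0, with 0.64 and 0.36 for 11 neural arms and 0.63 and 0.22 for 77 star arms.

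Of 20 family lists, 7 had all their members past the floor on 1 side of 0 (miR-25, miR-26, miR-29, miR-148/miR-152, miR-199 and miR-218 below, miR-181 above), and no family had all members counted. Over all 372 microRNAs, 165 lay above 0 and 207 below. The miR-218 list has 2 arms past the floor and those of miR-26, miR-148/miR-152 and miR-199 have 3 each. Lists this small often fall on 1 side. Under TMM scaling the highest member of miR-25 and of miR-218 lay above 0. All 6 arms of miR-29, which targets collagens and other matrix transcripts, were below 0 (median -0.51), with miR-29c at -1.02 and miR-29a* at -1.21 counted. miR-29c was at 473 CPM in the induced library, 957 in the dox control, 822 and 734 without dox. All 3 arms of miR-26 were below 0, with miR-26b, from an intron of Ctdsp1, at 2023 CPM against 4627, 3822 and 3347 CPM (-1.19). The 3 arms of miR-199, made from antisense transcripts of dynamin genes, lay between -0.88 and -0.45 with none counted.

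All 6 arms of miR-181 were above 0 (0.02 to 0.72, median 0.48) and all 9 of the Clcn5 introns on chromosome X (0.02 to 0.71, median 0.34), none counted. Of the growth-promoting miR-17 family 8 of 9 were above 0 (median 0.34), against 165 of 372 over all. Its member miR-93 was at 4686 CPM in the induced library, 2947 in the dox control, 3785 and 3169 without dox (0.67). With the shRNA in the total, 2 arms of miR-181 (miR-181a-1* and miR-181c) and 1 of the Clcn5 introns (miR-500) lay below 0. The medians of these 3 lists stayed above 0 under each scaling tried, and those of miR-29, miR-26 and miR-199 below. With the trend on G subtracted, the counted members miR-29c, miR-29a* and miR-26b were no longer counted, and miR-29c was also not counted under TMM scaling.

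**Figure D5:**
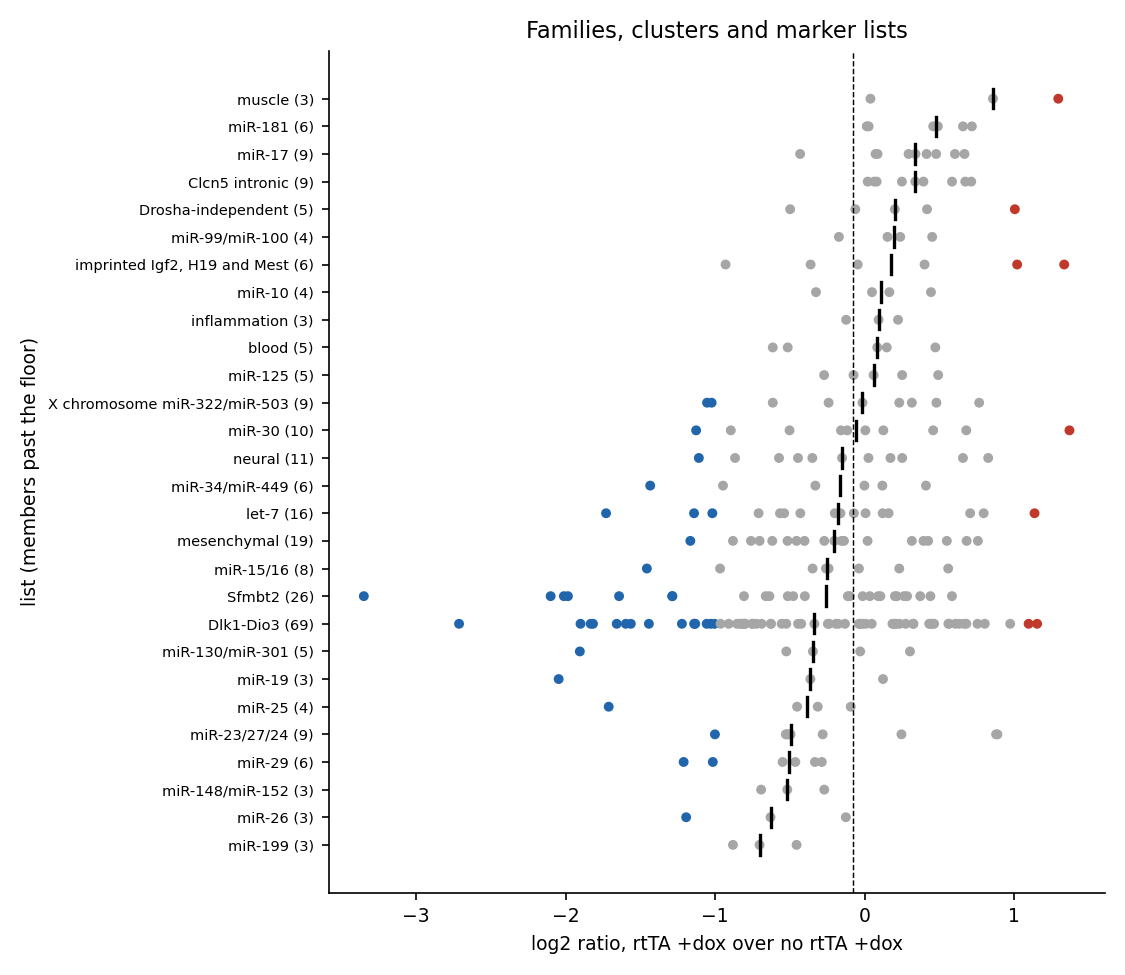
Log2 ratios (induced library over dox control) of the members past the floor in 28 lists with at least 3 members, 1 point per arm; the thick mark is the list median, the dashed line the median of all 372 microRNAs, blue and red the members counted as lower and higher. The Sfmbt2 and Dlk1-Dio3 lists reach furthest down, and most lists spread on both sides of the dashed line.

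Of the cell cycle family miR-15/16, 1 of 8 arms was counted as lower (14.2% over all), miR-15b* (-1.46), and the median was -0.25. Its guide miR-15b, from an intron of Smc4, was at 558 CPM in the induced library, 1092 in the dox control, 1650 and 1648 without dox (-0.97, -1.02 to -0.91). It missed the 2-fold threshold narrowly; the induced library was below all 3 others and the dox control below both libraries without dox. The family's guides share the seed AGCAGCA and ran up to 0.56 (miR-497).

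Of the p53-responsive miR-34 list 1 of 6 was lower (14.2% over all), miR-34b-3p at 16.9 CPM against 45.7, 36.9 and 40.8 CPM (-1.43). Its abundant member miR-34a was at 7606 and 7610 CPM. Of the miR-23/27/24 clusters 1 of 9 was lower (miR-24-1*, -1.0), also near the share over all, and the median was -0.49. Its star arms miR-27a* and miR-27b* were at 0.89 and 0.88 and its guides miR-23a and miR-23b at -0.52 and -0.51. Of the chromosome X cluster around miR-322, 2 of 9 were lower (miR-450a-5p and miR-450b-3p, against 14.2% over all) and miR-351 was at 0.77. Neither of the lower ones was counted by TMM or DESeq2 factors or with the trend on G subtracted. The median of this cluster, -0.01, turned positive by TMM or DESeq2 factors, and also if the 10 most abundant were left out of the total. Of the miR-25 family miR-32 alone was counted, while miR-92a, which shares its seed ATTGCAC, was at -0.45.

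None of the response markers was counted. miR-155 was at 1810 and 1695 CPM, and the 3 inflammation arms past the floor lay between -0.12 and 0.22. The hypoxia marker miR-210 was at 863 CPM in the induced library, above 519, 490 and 567 CPM (0.73), and has 40.9% G. Of the neural list 1 of 11 was lower, against 14.2% over all (miR-153, -1.11, on 33 and 62 counts) and the summed level was 1005 CPM in the induced library and 903 CPM in the dox control, with miR-9 at 232 and 258 CPM. Of the blood list 0 of 5 was counted, with summed levels of 83.0 and 85.5 CPM, and miR-122, a marker of liver, had 28 and 22 counts.

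Of the 62 counted, 14 are in none of the 37 lists. miR-672 was the only one of these that was higher. Among the lower ones, miR-374, from an intron of the X-linked noncoding gene Ftx, was at 105 CPM in the induced library, 276 in the dox control, 289 and 205 without dox (-1.39). miR-135a was at 9.86 CPM against 36.1, 18.8 and 25.6 CPM (-1.87), miR-193, a neighbour of miR-365 on chromosome 11, at 48.1 against 105, 53.2 and 58.8 CPM (-1.13), and miR-340-5p, from an intron of Rnf130, at 94.6 against 200, 158 and 134 CPM (-1.08). For miR-193 the dox control stood apart more than the induced library.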

How the data were processed

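Small RNA libraries of 4 groups of MEFs, 1 each, were sequenced. The authors deposited raw counts per microRNA name with its sequence, and 1 row for the shRNA; the sources used here do not give the aligner, the counting rule or the build. Counts were divided by the endogenous total and scaled to CPM. Ratios of the induced library to the dox control carry exact conditional binomial 95% intervals (counting error only); with 1 library per group no model was fitted. The scripts were tested on simulated data. Members and lists were chosen with earlier results of these data known.

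MicroRNAs are named in the report if they are among the 10 most abundant, counted as higher, among the 15 lowest ratios, beyond all 3 other libraries, counted in a list, the highest or lowest guide of a family, or a cell type marker; one-base pairs, hairpin arms and other names were chosen after their values were seen. Sequences are those deposited with the counts. Positions are from RefSeq (GRCm38.p6) by exact match of these sequences, which placed 408 of 508 names (308 of 372). Host genes are from GENCODE vM21. Alternatives used TMM factors (edgeR 4.0.16) and size factors (DESeq2 1.42.0), other totals, floors and thresholds, and a trend on G. Python 3.11.15, scipy 1.17.1 and R 4.3.3 were used.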

Additional observations from a re-analysis of the deposited data

Results flagged for a closer look

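For 16 microRNAs the ratio of rtTA to no rtTA was at least 2-fold in one direction with dox and lay in the opposite direction without dox, with both counting intervals excluding equality. The difference between these ratios was not tested, since each rests on 1 library per group. The pairs of ratios share no library. Of all 372 microRNAs past the floor, 155 lay above 0 without dox and 217 below. Of the 53 counted as lower with dox, 20 lay above 0 without it. Of the 9 counted as higher, 6 lay below 0. Opposite sides were thus about as common as over all. With the trend on G subtracted, none of the 16 was counted with dox any longer, and miR-329 changed sign (0.11). Under TMM scaling miR-29c, miR-340-5p and miR-376c were not counted either.

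Of these, 12 were lower in the induced library and higher in rtTA cells without dox. On the log2 scale, with dox first, they were miR-365 (-2.10 and 0.28), let-7c-2* (-1.73 and 0.55), miR-15b* (-1.46 and 0.62), miR-369-3p (-1.44 and 0.39), miR-374 (-1.39 and 0.49), miR-29a* (-1.21 and 0.21) and miR-26b (-1.19 and 0.19). The remaining ones were miR-136* (-1.14 and 0.06), miR-329 (-1.14 and 0.16), miR-340-5p (-1.08 and 0.24), miR-29c (-1.02 and 0.16) and miR-376c (-1.0 and 0.18). In the other direction were miR-320 (1.01 and -0.20), miR-370 (1.10 and -0.36), miR-323-5p (1.16 and -0.94) and miR-672 (1.41 and -0.13).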

How the results depend on the processing

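Each group is 1 library, so spread between cultures is unknown and no library could be left out. No paired analysis was possible because the labels give no replicate numbers. Against 9 higher and 53 lower, a 1.5-fold threshold gave 51 and 90 and a 3-fold threshold 0 and 20; subtracting the trend on G gave 8 and 13. Other scalings and floors, and leaving out star or near-identical microRNAs, gave 7 to 13 higher and 38 to 61 lower. TMM and DESeq2 factors raised the median of all by 0.101 and 0.104 and put the shRNA at 33.8-fold and 33.9-fold; each ended the same number of counted differences, 11. Beyond all 3 other libraries, 16 and 43 were higher and lower at 1.5-fold and 0 and 4 at 3-fold. The 1 higher there became 2 under TMM, under DESeq2 factors and without the 10 most abundant, and 0 with a floor of 100 counts or without star names. With the trend on G subtracted, let-7f* (0.10), miR-329 (0.11) and miR-466i (0.44) changed sign. The medians of the lists miR-30, miR-218, miR-221/miR-222 and miR-322/miR-503 changed sign under TMM and DESeq2 factors and, to 0.25, 0.43, 0.08 and 0.26, with the trend on G subtracted; miR-322/miR-503 also did with a floor of 100 counts or without star names (0.11 each) and without the 10 most abundant (0.01), miR-221/miR-222 without the 10 most abundant (0.02), and miR-30 without near-identical microRNAs (0.46). The cause was not tested. Depth limits the rarer ones: 20 of the 53 lower had under 100 counts in a dox-treated library.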

Other observations

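Features other than G were weaker guides to the side of a ratio. The Pearson correlation of the ratio across 372 microRNAs was 0.69 with the percentage of G, -0.32 with A, -0.19 with C and -0.19 with T; the 4 percentages of a sequence sum to a fixed total, so these values are not independent. By last base the median was 0.18 for G (87 microRNAs, 5 lower), -0.13 for T, -0.15 for A and -0.33 for C. Of 77 star arms 15 were lower and 2 higher (median -0.20), and of the 295 others 38 and 7 (-0.06). By level, 14 of 55 under 10 CPM and 5 of 94 over 1000 CPM were lower.

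Families with a shared seed differed in how far their guides spread. Between miR-15b and miR-497, which share AGCAGCA, the ratios were 1.53 apart, and among the let-7 guides 1.36. The 5 guides with AAAGTGC ran from 0.07 (miR-106b) to 0.67 (miR-93). miR-34a, the most abundant of its family, differed by less than 1.10-fold between the dox-treated libraries, while miR-34b-3p and miR-34c*, both with the seed ATCACTA, were at -1.43 and -0.95. miR-132 and miR-212, neighbours from 1 transcript with the seed AACAGTC, were at 0.16 and -0.89. miR-196a and miR-196b, from the Hox clusters, were at -0.07 and 0.71 with the same number of G.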
